A study of Glycine max with 8 samples.

Results

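Among the leaf transcripts of 4 wild-type soybean (Glycine max) libraries, 200 loci were followed whose level was high in the library WT-1 and low in WT-4, or the reverse, with WT-2 and WT-3 in between. They were chosen from 31785 loci measured by RNA sequencing. Of these, 18001 averaged 5 FPKM or more across the 8 libraries of the series, where FPKM is the number of fragments scaled to the length of the gene and to the size of the library. On the scale log2(FPKM + 1), 7134 of the 18001 had WT-2 and WT-3 between WT-1 and WT-4, and the 200 with the largest WT-1 minus WT-4 difference were kept, of which 156 were higher in WT-1 and 44 were higher in WT-4. The 2 groups of the series are the line labelled OX5 and the line labelled WT, each with 4 libraries of mature leaves from plants given sufficient phosphorus and sampled at the full-seed stage. The labels do not give the gene altered in OX5, its promoter or the number of independent lines, and no gene was treated as its target. Nor do they state that each library is its own plant, so a p-value given here reflects the scatter of these samples alone, and that scatter could be technical. WT-1 to WT-4 are replicates with no order among them, and no condition separates WT-1 from WT-4.

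A mature soybean leaf at this stage feeds the filling seeds with carbon and with nitrogen drawn from its own proteins, and its transcripts are known to change with leaf age, position on the plant, time of day, light, water and damage. Levels of such transcripts can therefore differ between plants of 1 genotype that are grown together. No names come with the locus IDs in the files, and none of these IDs is in the RefSeq table used here. No role is given for any locus, and leaf or other cell type markers could not be looked up. IDs are printed for the 2 loci with the largest difference in each direction and for 1 locus that passed the test of OX5 against WT, and other loci are given by chromosome.

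The reads recovered from the steps of the FPKM values numbered 17536942 to 19139497 per library in OX5 and 18768431 to 19156866 per library in WT, over the listed genes. WT-3 stood apart from the other WT libraries in 1 respect. At the 200 loci it lay close to the plain mean of the FPKM values of WT-1 and WT-4. The ratio of WT-3 to that mean had a median of 0.973 (quartiles 0.90 and 1.03), and 176 of the 200 loci (88.0%) had a ratio between 0.8 and 1.25. For WT-2 the same ratio had a median of 0.532 (quartiles 0.371 and 0.793), and 37 loci (18.5%) lay between those bounds. Most of the 200 loci were thus near the mean of WT-1 and WT-4 in WT-3, while in WT-2 they scattered mostly below it.

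WT-3 lay similarly close to that mean at genes outside the 200, while the ratio of WT-2 was nearer to 1 there than at the 200. Among the 1708 other genes of at least 5 FPKM that differed at least 2-fold between WT-1 and WT-4, whatever their WT-2 and WT-3 values, the ratio had a median of 0.989 in WT-3 (quartiles 0.922 and 1.05) and of 0.86 in WT-2 (quartiles 0.659 and 1.11). For a library between WT-1 and WT-4, the ratio is held nearer to 1 where these 2 differ less, as at many of the 1708. As a share of the way from WT-4 to WT-1 in FPKM, the median of WT-2 was 0.255 at the 200 and 0.372 at the 1708. That of WT-3 was 0.485 and 0.495. In recovered reads, the typical distance of WT-3 from the mean of WT-1 and WT-4 was 2.11 times the counting error at the 200 loci and 1.87 times over all 18001 genes. For WT-2 it was 16.3 times and 3.33 times the counting error. Counting error leaves out the noise of library preparation. The labels give no pooling of samples, and whether WT-3 is independent of WT-1 and WT-4 was not tested. Without any condition on WT-3, with the rule otherwise unchanged, all but 1 of the 200 loci were chosen again.

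**Figure D1:**
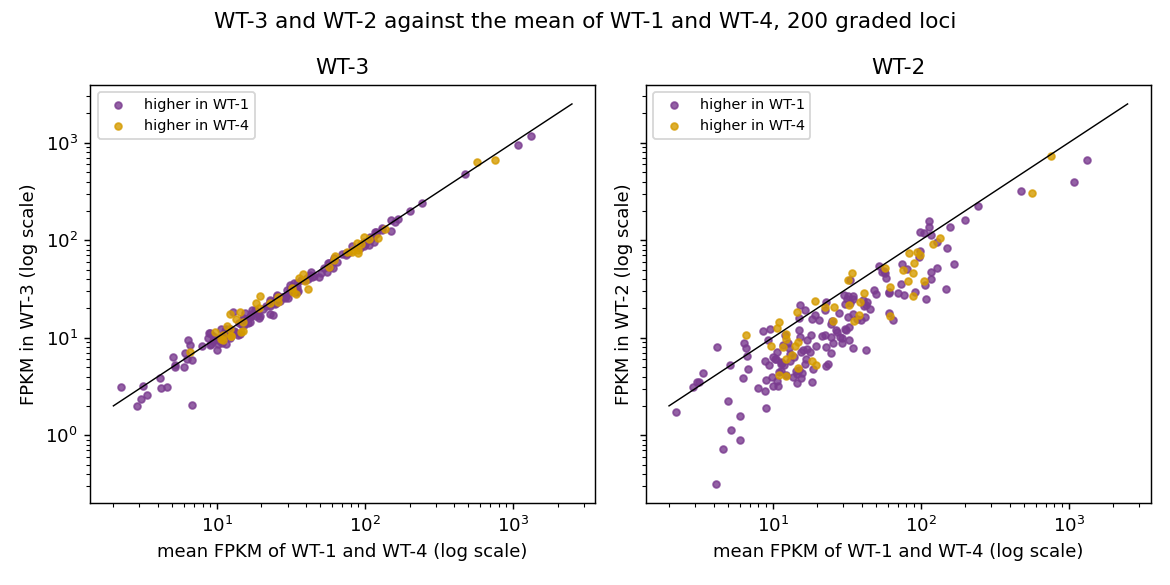
Level of each of the 200 loci in WT-3 (left) and in WT-2 (right), in FPKM on log axes, against the mean FPKM of WT-1 and WT-4; the line marks equality. In WT-3, 176 of the 200 points lie between 0.8 and 1.25 times the mean, and in WT-2, 37 do.

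The values of WT-1, WT-2, WT-3 and WT-4 chose the 200 loci, so what follows on them is a description with no test. The absolute WT-1 minus WT-4 difference ran from 2.31 to 5.68 among the 156 loci higher in WT-1, with a median of 2.76, a 6.77-fold difference on the FPKM + 1 scale. Among the 44 loci higher in WT-4 it ran from 2.31 to 5.15, with a median of 2.61, which is 6.12-fold. The last 2 loci kept differed by 2.31 each, and the first 2 left out differed by 2.31 and 2.30. The limit of 200 therefore cuts through a continuous run of differences.

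The balance of the directions depended on the size of the difference. Among all 7134 genes with WT-2 and WT-3 in between, 2883 were higher in WT-1 and 4248 in WT-4, with 3 equal in both. At a difference of at least 0.5, the numbers were 1894 higher in WT-1 and 2108 higher in WT-4. At a difference of at least 1, they were 944 and 616, and at a difference of at least 2, they were 257 and 93. In FPKM as deposited, small differences were thus more often toward WT-4, and differences of at least 2-fold more often toward WT-1. The median WT-1 minus WT-4 difference over the 18001 genes was −0.10, and it was −0.16 after each library was rescaled to the same sum and −0.02 with median-ratio size factors. With these scalings the 200 loci divided into 144 higher in WT-1 and 56 higher in WT-4, and into 167 and 33. The small differences were not counted again with them, so their lean toward WT-4 may depend on the scaling.

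**Figure D2:**
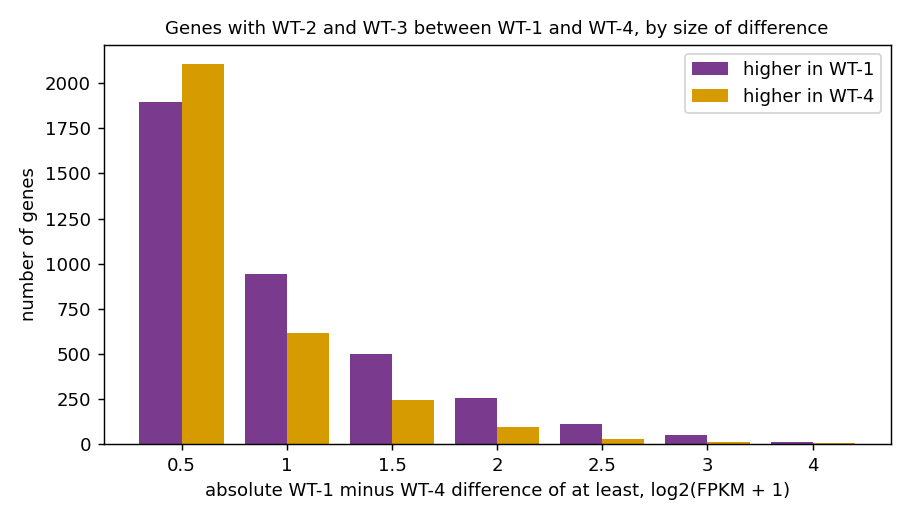
Number of genes whose WT-2 and WT-3 values lie between WT-1 and WT-4, counted by the least absolute WT-1 minus WT-4 difference in log2(FPKM + 1) and by direction. At 0.5 the bars are 1894 and 2108, and from 1 upward the bar for genes higher in WT-1 is the taller one.

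WT-1 and WT-4 were the highest and the lowest WT library, in either order, at 7131 of the 18001 genes (39.6%). The next pair was WT-1 and WT-2, at 3654 genes (20.3%), and the least frequent was WT-3 and WT-4, at 1144 (6.36%). WT-3 lay between WT-1 and WT-4 at 65.5% of the genes and WT-2 at 48.0%. WT-3 was the highest or the lowest WT library at 24.9% of the genes, WT-2 at 46.7%, WT-4 at 61.1% and WT-1 at 67.2%, so WT-3 was an extreme least often.

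The locus with the largest difference of all was Glyma.07G034900.Wm82.a4.v1 on chromosome 7. It had 124, 156, 4.55 and 2.35 FPKM in OX5-1 to OX5-4, and 66.0, 39.4, 29.3 and 0.30 FPKM in WT-1 to WT-4. The WT values rest on 3876, 2316, 1707 and 18 reads. WT-4 was far below the other WT libraries, and OX5 split into a pair above every WT library and a pair between WT-4 and the other WT libraries. OX5 over WT gave a log2 fold change of 0.45 with an SE of 1.59 (limma adjusted p = 0.897), and the lines overlapped.

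Glyma.20G204500.Wm82.a4.v1 on chromosome 20 had the same shape at a higher level. It had 714, 641, 31.1 and 26.9 FPKM in OX5-1 to OX5-4, and 224, 138, 108 and 4.19 FPKM in WT-1 to WT-4. Even in WT-4 it had 198 reads. OX5-1 and OX5-2 were again above every WT library, and OX5-3 and OX5-4 fell between WT-4 and WT-3. OX5 over WT came to 1.13 on the log2 scale with an SE of 1.47 (limma adjusted p = 0.688).

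Among loci higher in WT-4, Glyma.04G039900.Wm82.a4.v1 on chromosome 4 had the largest difference. It had 0.11, 0, 6.49 and 13.3 FPKM in OX5-1 to OX5-4, and 0.466, 14.7, 26.2 and 51.1 FPKM in WT-1 to WT-4. OX5-2 had no read, which allows up to 3 reads or 0.0628 FPKM, and OX5-1 had 5 reads. The 3 lowest libraries were thus OX5-1, OX5-2 and WT-1. OX5 over WT came to −2.03 on the log2 scale with an SE of 1.21 (limma adjusted p = 0.365).

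Glyma.12G100500.Wm82.a4.v1 on chromosome 12 had 26.6, 9.50, 43.1 and 55.6 FPKM in OX5-1 to OX5-4, and 1.68, 23.0, 38.5 and 76.7 FPKM in WT-1 to WT-4. WT-1 was the lowest library of the series here, and every OX5 library lay inside the WT range. OX5 over WT came to 0.47 on the log2 scale with an SE of 0.97 (limma adjusted p = 0.813). At all 4 of these loci, WT-3 lay at 0.441 to 0.509 of the way from WT-4 to WT-1 in FPKM.

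**Figure D3:**
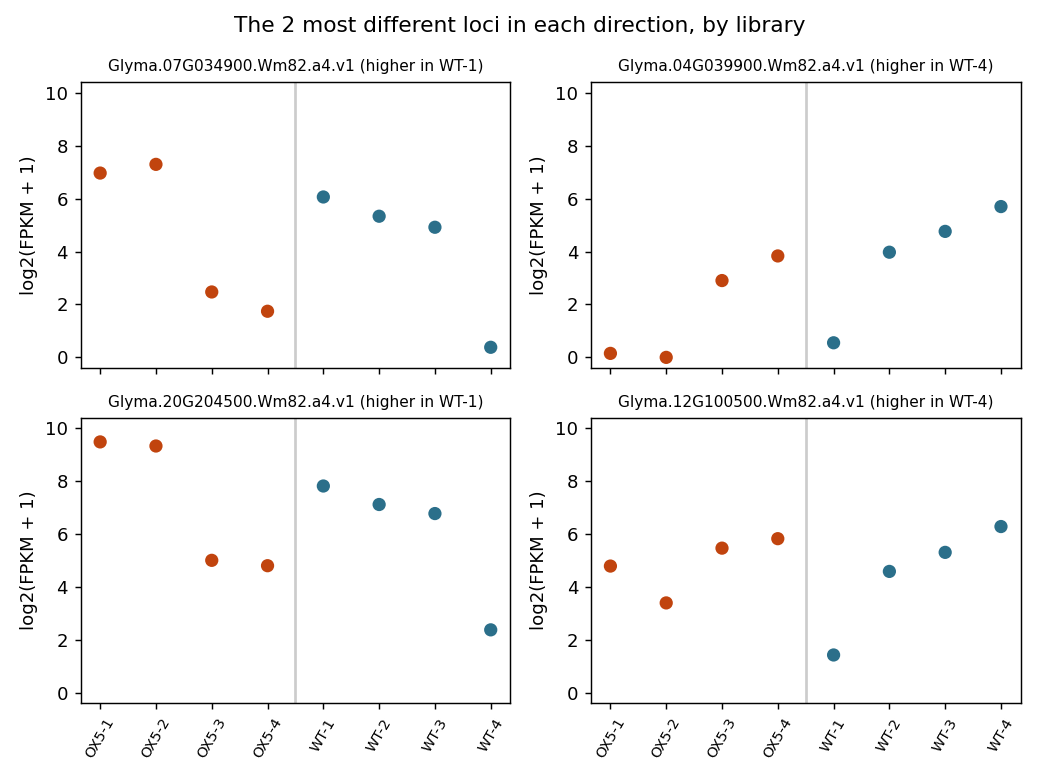
Level of the 2 loci with the largest WT-1 minus WT-4 difference in each direction, in log2(FPKM + 1), with 1 point per library, OX5 at the left and WT at the right of the grey line. At both loci higher in WT-1 the OX5 points form a high pair (OX5-1, OX5-2) and a low pair (OX5-3, OX5-4), and at both loci higher in WT-4 the order of these pairs is turned round.

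Together, the 156 loci higher in WT-1 made up 1.30%, 1.35%, 1.27% and 1.67% of all FPKM in OX5-1 to OX5-4, and 2.54%, 0.852%, 1.42% and 0.395% in WT-1 to WT-4. The 44 loci higher in WT-4 made up 0.307%, 0.238%, 0.505% and 0.494% in OX5-1 to OX5-4, and 0.135%, 0.385%, 0.532% and 0.957% in WT-1 to WT-4. On both sums every OX5 library lay inside the WT range. In these whole leaf samples, fewer cells that hold a transcript and less RNA per cell cannot be told apart.

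The loci spanned a wide range of abundance. The mean over the 8 libraries ran from 5.06 to 1535 FPKM among loci higher in WT-1 (median 17.9) and from 6.21 to 699 FPKM among loci higher in WT-4 (median 26.0), against a median of 14.1 FPKM over the 18001 genes. The most abundant locus higher in WT-1, on chromosome 15, had 1044, 1650, 1797 and 3305 FPKM in OX5-1 to OX5-4, and 2217, 659, 1171 and 437 FPKM in WT-1 to WT-4. The most abundant locus higher in WT-4, on chromosome 17, had 643, 459, 766 and 812 FPKM in OX5-1 to OX5-4, and 252, 734, 665 and 1259 FPKM in WT-1 to WT-4. At the chromosome 15 locus OX5-4 exceeded every WT library, whereas at the chromosome 17 locus all OX5 values lay inside the WT range.

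**Figure D4:**
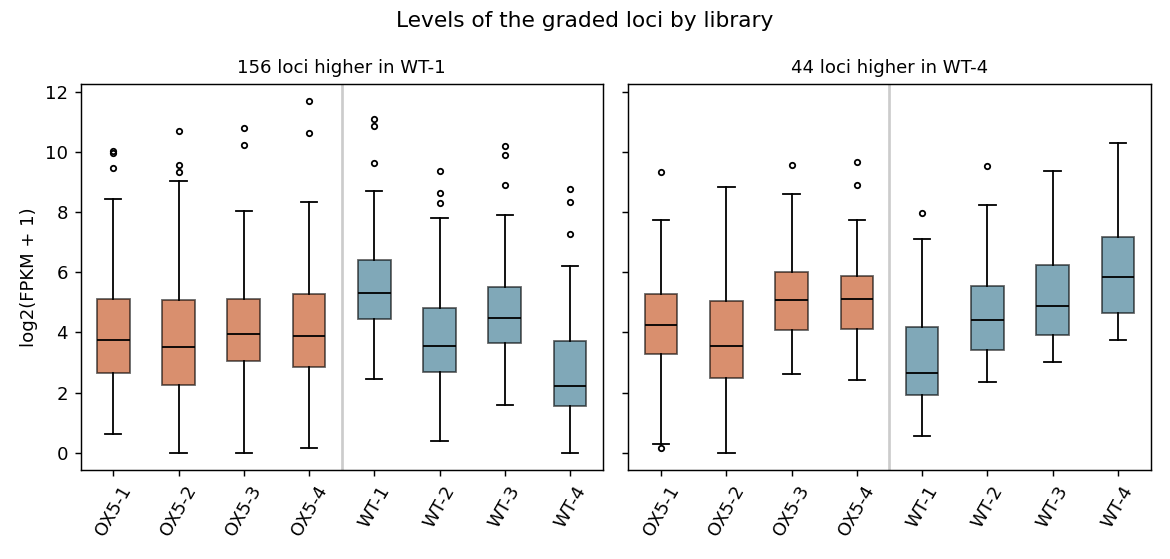
Level of the 156 loci higher in WT-1 (left) and the 44 loci higher in WT-4 (right) in each library, in log2(FPKM + 1); boxes span the quartiles, lines inside them are medians, whiskers reach the farthest locus within 1.5 box heights, and circles are loci beyond. The WT medians run between 5.32 in WT-1 and 2.204 in WT-4 at the left, and between 2.66 in WT-1 and 5.84 in WT-4 at the right, with all OX5 medians inside these limits.

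In OX5 leaves the average level of most of the 200 loci lay inside the range of the WT libraries. The mean of the OX5 libraries on the log2 scale was inside it at 142 of the 156 loci higher in WT-1 and at 41 of the 44 loci higher in WT-4, together 91.5% of the 200, against 50.1% of the 18001 genes. The rule chose loci with a wide WT range, so a larger share inside that range is built into the choice. The single OX5 libraries differed more. OX5-3 was inside the WT range at 190 loci (95.0%, against 54.0% of the 18001 genes) and OX5-4 at 172 (86.0%, against 40.2%). OX5-1 was inside at 135 loci (67.5%, against 41.7%) and OX5-2 at 106 (53.0%, against 37.5%). All 4 OX5 libraries were inside at 80 loci (40%, against 11.6%).

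To place the OX5 libraries along the WT difference, each locus was put on a scale with 0 at WT-4 and 1 at WT-1, in log2(FPKM + 1). Over the 156 loci higher in WT-1, the median position was 0.337 in OX5-1, 0.201 in OX5-2, 0.537 in OX5-3 and 0.46 in OX5-4, and it was 0.373 in WT-2 and 0.695 in WT-3. Over the 44 loci higher in WT-4, it was 0.697 in OX5-1, 0.846 in OX5-2, 0.345 in OX5-3 and 0.227 in OX5-4, and it was 0.451 in WT-2 and 0.286 in WT-3. For the loci higher in WT-1, then, OX5-1 and OX5-2 were nearer to the low WT library in the median. For the loci higher in WT-4 they were also nearer to the low WT library, which there is WT-1. OX5-3 and OX5-4 were in neither set at an end of the scale.

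The OX5 libraries thus did not repeat the WT difference as 1 axis, and the 200 loci split by how the pair OX5-1 and OX5-2 stood to the pair OX5-3 and OX5-4. This pairing was taken from the libraries and not from the labels, and no test was made of it. The choice of loci used the OX5 values through the mean of all 8 libraries, and 12 of the 156 loci higher in WT-1 and 0 of the 44 higher in WT-4 had a WT mean under 5 FPKM and reached the minimum only through OX5. Counts without these 12 are given beside some of the counts they touch. Without them, the OX5 mean lay inside the WT range at 134 of 144 loci higher in WT-1. Among the 17240 genes with a WT mean of at least 5 FPKM it did so at 8846. The counts inside that range for the OX5 libraries, singly or all together, and the count of pairs that stood clear include the 12. Both libraries of the first pair were below both of the second at 88 of the 156 loci higher in WT-1 (56.4%) and at 33 of the 44 loci higher in WT-4 (75%), against 24.4% of the 18001 genes. They were above both at 45 (28.8%) and 3 loci (6.82%), against 43.2% of the 18001 genes. Among loci with a WT mean of at least 5 FPKM, the first pair was below both at 86 of 144 (59.7%) and above both at 36 (25%) of those higher in WT-1, against 25.1% and 42.4% of the 17240 genes with such a mean. The pairs stood clear of each other, in either order, at 133 and 36 loci, against 67.7% of the 18001 genes. In both sets the first pair was more often the lower one, while over all genes, counting differences of any size, it was more often the higher one. At differences of at least 2-fold, the first pair was more often the lower one over all genes too, at 1006 of the 18001 against 733 where it was the higher one. The median OX5 pair difference, first minus second, was −0.84 at loci higher in WT-1, −1.44 at loci higher in WT-4 and 0.12 over the 18001 genes.

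Differences of at least 2-fold between the OX5 pairs divided the 156 loci higher in WT-1 into 3 sets. The first pair was at least 2-fold above at 31 loci (19.9%, against 4.07% of the 18001 genes) and at least 2-fold below at 67 loci (42.9%, against 5.59%), and 58 loci differed less. Of the 31 loci, 9 reached the minimum of 5 FPKM only through OX5, so the count of 31 is in part set by that minimum. With a WT mean of at least 5 FPKM, 22 of 144 loci (15.3%) were at least 2-fold above, against 3.49% of the 17240 genes, and 65 (45.1%) at least 2-fold below, against 5.70%. At the 31 loci the median level was 28.7, 40.9, 3.13 and 2.94 FPKM in OX5-1 to OX5-4, and 18.7, 7.82, 9.76 and 0.401 FPKM in WT-1 to WT-4. At the 67 loci it was 5.55, 4.41, 17.9 and 16.9 FPKM in OX5-1 to OX5-4, and 43.4, 10.2, 22.7 and 4.795 FPKM in WT-1 to WT-4. In the first of these sets OX5-1 and OX5-2 exceeded WT-1 in the median, and in the second they were close to WT-4. The median levels of the first set include the 9 loci that entered only through OX5. How far OX5-1 and OX5-2 exceeded WT-1 there is thus in part set by the minimum, and levels without these 9 are not given. Both named loci higher in WT-1 belong to the set of 31.

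The sets had different medians in WT-2. The split did not use WT-2, but the choice of loci did, since it placed WT-2 between WT-4 and WT-1, so these values are a description. On the scale from WT-4 to WT-1, the median position of WT-2 was 0.707 at the 31 loci (quartiles 0.544 and 0.826), 0.335 at the 58 loci (quartiles 0.193 and 0.486) and 0.342 at the 67 loci (quartiles 0.193 and 0.50). That of WT-3 was 0.744, 0.696 and 0.681. Over loci with a WT mean of at least 5 FPKM, the medians of WT-2 were 0.70 at 22 loci, 0.332 at 57 and 0.344 at 65.

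Among the 44 loci higher in WT-4, the first OX5 pair was at least 2-fold below at 25 loci (56.8%, against 5.59% of the 18001 genes). It was at least 2-fold above at 1 (2.27%, against 4.07%). At the 25 loci the median level was 9.96, 4.96, 30.8 and 33.3 FPKM in OX5-1 to OX5-4, and 8.36, 24.0, 32.6 and 63.8 FPKM in WT-1 to WT-4. OX5-1 and OX5-2 were there near WT-1 and below it in the median of OX5-2, while OX5-3 and OX5-4 were near WT-3. At the 18 loci that differed less, all 4 OX5 medians, 24.7, 19.5, 33.1 and 27.5 FPKM, were above the WT-3 median of 16.97 FPKM. The medians of WT-1, WT-2 and WT-4 were 4.22, 15.6 and 25.8 FPKM, so those of OX5-3 and OX5-4 were also above that of WT-4. Taken locus by locus, the median positions of OX5-3 and OX5-4 were 0.299 and 0.222, inside the scale from WT-4 to WT-1.

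**Figure D5:**
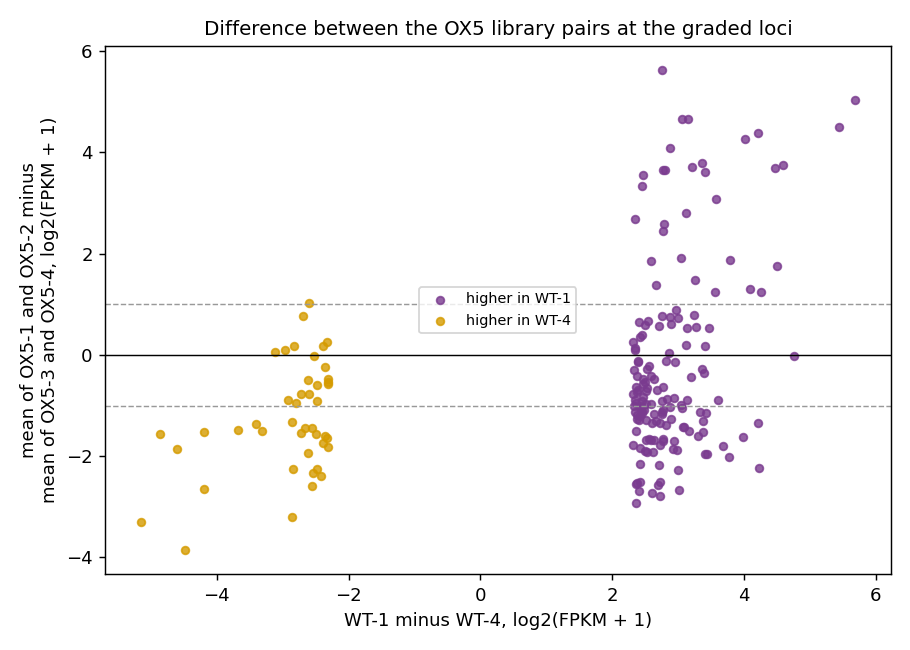
For each of the 200 loci, the mean of OX5-1 and OX5-2 minus the mean of OX5-3 and OX5-4 (vertical) against the WT-1 minus WT-4 difference (horizontal), both in log2(FPKM + 1); dashed lines mark 2-fold. Of the loci higher in WT-1, 31 lie at or above the upper dashed line and 67 at or below the lower one, and of the loci higher in WT-4, 25 lie at or below the lower one and 1 above the upper one.

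The OX5 libraries also differed more among themselves at these loci than at genes in general. This spread is not fully independent of the choice, since the 12 loci that reached the minimum only through OX5 are among them. The median SD between the OX5 libraries on the log2 scale was 0.845 at loci higher in WT-1 and 0.88 at loci higher in WT-4, against 0.234 over the 18001 genes. With a WT mean of at least 5 FPKM it was 0.811 and 0.88, against 0.23. Between the WT libraries, where the rule fixed a wide spread, it was 1.23 and 1.17, against 0.193.

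The test of OX5 against WT, limma with a variance trend on log2(FPKM + 1) over 30424 genes, called 1 of the 200 loci at a Benjamini-Hochberg adjusted p under 0.05. It was higher in OX5, where 1.38% of all tested genes were called higher, and 0 were called lower, where 1.01% of all tested genes were, or 2.40% in either direction. At an unadjusted p under 0.05 there were 5 higher and 8 lower loci, together 6.50% of the 200. Of all tested genes 21.7% had such a p-value, with 3962 higher and 2651 lower. Of the 5 higher loci, 1 on chromosome 3 reached the minimum of 5 FPKM only through OX5 (WT mean 4.65 FPKM, OX5 mean 31.3 FPKM). Its p-value supports nothing. A wide WT spread lowers the chance of a call, so these counts follow in part from the choice of loci. The median log2 fold change was −0.20 at loci higher in WT-1 and −0.34 at loci higher in WT-4, against 0.04 over all tested genes, and the median SE was 0.65 and 0.60, against 0.18. Without WT-3, 0 of the 200 were called, 6 had an unadjusted p under 0.05, and the calls over all genes numbered 58, against 729 with it. With limma-voom on recovered reads, 1 of the 200 was called. With library quality weights in limma, 63 of the 200 were called (8 higher and 55 lower in OX5). Of the 30424 tested genes, 9504 were called with these weights (6107 higher and 3397 lower), a share similar to that of the 200. The count among the 200 thus depends on the weighting, as does the count over all genes.

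The called locus was Glyma.11G229700.Wm82.a4.v1 on chromosome 11, named after its values were seen. It had 50.6, 45.0, 46.6 and 50.1 FPKM in OX5-1 to OX5-4, and 3.29, 6.64, 15.5 and 23.7 FPKM in WT-1 to WT-4. It averaged 48.1 ± 2.72 FPKM in OX5 and 12.3 ± 9.21 FPKM in WT (SD, n = 4 each). All OX5 libraries were above all WT libraries, and the OX5 values hardly differed among themselves. OX5 over WT came to 2.19 on the log2 scale with an SE of 0.47 (limma adjusted p = 0.0498). The adjusted p ran from 0.00855 to 0.125 over 17 alternative fits, of which 6 passed the threshold.

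Only 1 other locus of the 200 had no overlap between the lines, where 16.3% of the 18001 genes had none. It lies on chromosome 3 and was higher in WT-1 than in WT-4. It had a WT mean of 4.65 FPKM and an OX5 mean of 31.3 FPKM, so it reached the minimum of 5 FPKM only through OX5, the line in which it was high, and its separation supports nothing. It had 46.0, 27.0, 16.2 and 35.8 FPKM in OX5-1 to OX5-4, and 10.1, 2.24, 6.31 and 0 FPKM in WT-1 to WT-4. Its log2 fold change was 2.91 (SE 0.68), and it did not pass the threshold (limma adjusted p = 0.0601). WT-4 had no read at this locus, against 135 in WT-1. A count of 0 allows up to 3 reads, or 0.221 FPKM.

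The 200 loci lay on all 20 chromosomes, with 196 on chromosomes, 1 on a scaffold and 3 numbered outside the annotation. Their share of the genes of at least 5 FPKM was 1.11% in all. It was highest among the chromosomes on chromosome 11, at 18 of 923 genes (1.95%), and lowest on chromosome 4, at 4 of 842 (0.475%). On chromosome 11, 16 of the 18 loci were higher in WT-1.

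Some of the loci were neighbours in the order of their IDs. There were 8 runs of successive listed loci, with 19 loci in all, and every locus in these runs was higher in WT-1. Of these runs, 3 were on chromosome 11. The longest run held 4 loci on chromosome 8, with implied lengths between 567 and 593 bases. The most abundant of the 4 had 1008, 752, 1196 and 1588 FPKM in OX5-1 to OX5-4, and 1852, 397, 950 and 321 FPKM in WT-1 to WT-4. The least abundant had 28.7, 43.0, 9.45 and 9.85 FPKM in OX5-1 to OX5-4, and 46.5, 5.41, 17.3 and 1.10 FPKM in WT-1 to WT-4. All 4 had WT-1 as their highest and WT-4 as their lowest WT library, as the rule asks, while the OX5 pairs stood in opposite order at these 2 loci. How the counting treated reads shared between similar neighbouring copies is not given in the sources used here, so values within a run may not be independent.

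Loci higher in WT-1 were shorter than loci higher in WT-4. The gene length implied by the FPKM steps had a median of 1265 bases (quartiles 865 and 1885) at the 156 loci, against 1816 bases (quartiles 1308 and 2468) at the 44 loci and 1753 bases over the 18001 genes. Of the 4501 shortest of the 18001 genes 71 were among the 156 and 8 among the 44, and of the 4500 longest 16 and 9 were. Across the 18001 genes, length and the WT-1 minus WT-4 difference had a Spearman rho of −0.111, where genes are not independent. The median difference was −0.04 among those shortest genes and −0.18 among the longest. Length moved with the direction of the WT difference, and its part in it was not tested. No RNA integrity value per library was used here.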

How the data were processed

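RNA sequencing of mature leaves gave 4 libraries of OX5 and 4 of WT, grouped by their titles. The authors deposited 1 table of FPKM with 4 decimals and 1 column per library. Per the submitters' processing notes, HTSeq 0.6.0, HISAT2 2.1.0, Bowtie2 2.2.3, CASAVA and TopHat2 were used, in roles not stated. The genome build was not given in the sources used here, nor were the strand setting and the treatment of shared reads. A single row without a name was left out.

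Whole reads were recovered from the FPKM steps for 100% of the genes (99th percentile distance from a whole number 0.00759 reads). Intervals from them cover counting error only. OX5 was compared with WT by limma 3.58.1 (R 4.3.3) on log2(FPKM + 1), for genes averaging 0.5 FPKM or more, with Benjamini-Hochberg adjustment. It was checked on simulated data with the same relative scatter for every gene and no split of OX5 into pairs. That check does not cover the spread between OX5 libraries seen here. Alternatives were other pseudocounts, filters and scalings, library weights, the replicate block, recovered reads and leaving out each library. The choice of loci without WT-3, the minimum on the WT mean, and the counts inside the WT range and positions with a library left out, were added after seeing the data. Python 3.11.15 was used.

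The loci and tests were chosen with earlier results of these data known. IDs were printed for the 2 largest differences in each direction, since no table pairs IDs with names, and for the locus called. The gene lists by description could therefore not be used. Replicate numbers are not said to pair plants, and no block was used.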

Additional observations from a re-analysis of the deposited data

Results flagged for a closer look

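The summed FPKM of OX5-4 was 623720, apart from OX5-1 to OX5-3 at 594118 to 597668. It was the 1 value that stood apart among 22 groups of 4 looked at, and chance gives about 1 in 20. The rescaling of each library to the same sum removes this difference, and under it 182 of the 200 loci had an OX5 mean inside the WT range, against 183 as deposited.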

How the results depend on the processing

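Of the 200 loci, 148 to all but 1 were chosen again under the alternatives of pseudocount, filter, scaling or condition, fewest with a pseudocount of 5, 180 with the minimum applied to the WT mean, and 195 to 198 when 1 OX5 library was left out. The rule cannot be applied without WT-1 or WT-4. The OX5 mean lay inside the WT range at 183 loci, and at 118 to 191 with 1 library left out, fewest without WT-4 (118), which sets 1 end of the range, followed by WT-1 (131). The median position of the OX5 mean was 0.449 at loci higher in WT-1 and 0.542 at loci higher in WT-4, and moved by less than the spread between OX5 libraries in all settings tried. Against 729 calls over all genes and 1 among the 200, limma-voom gave 434 and 1, and the replicate block gave 56 and 0. Library quality weights gave 9504 over all genes (6107 higher, 3397 lower) and 63 among the 200 (8 higher, 55 lower). The 200 held 0 calls with a pseudocount of 0.1, with no filter and after rescaling to the same sum, with 12, 13 and 16 loci at an unadjusted p under 0.05. Leaving out 1 library gave 58 to 761 calls over all genes, fewest without WT-3 (101 without OX5-1, 160 without OX5-2, 188 without WT-2, 334 without WT-4, 392 without OX5-4 and 428 without WT-1), and 0 to 5 among the 200, most without WT-4. With WT-3 used neither in the rule nor in the fit, 0 were called and 6 had an unadjusted p under 0.05. For each of these changes the cause was not tested.

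The numbers gave no basis for the replicate block: the deviations of equally numbered libraries from their line means had r = −0.06, 0.07, 0.13 and −0.06 over genes, and some libraries had a higher r with another number. Without a call in any case, the log2 fold change turned to −0.82, −0.34 and −0.45 at Glyma.07G034900.Wm82.a4.v1 without WT-4, OX5-1 and OX5-2, to −0.0807 at Glyma.20G204500.Wm82.a4.v1 without WT-4, and to −0.39 and −0.52 at Glyma.12G100500.Wm82.a4.v1 with library quality weights and without WT-1. With 1 library left out, these fold changes ran from −0.82 to 1.40, from −0.0807 to 1.92 and from −0.52 to 1.10 at these loci in turn. At Glyma.04G039900.Wm82.a4.v1 library quality weights gave a call (−3.74, adjusted p = 0.013 by limma). Depth limits the size of a difference at the 3 of the 156 loci with no read in WT-4, and at others with few reads there. For example, the loci ranked 11 and 13 by difference had 1 read each in WT-4, and the locus ranked 14 had 2.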

Other observations

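Each of the 8 libraries was set against the plain mean of every pair of the others, which gave 168 combinations over the 18001 genes. The SD of the log2 ratio was lowest for WT-3 against the mean of WT-1 and WT-4, at 0.17. The next lowest was OX5-3 against the mean of OX5-4 and WT-3, at 0.252, followed by WT-3 against the mean of WT-1 and WT-2, at 0.271. These combinations share libraries and are given as values only.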
